A study of Mus musculus with 12 samples.

Results

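The comparison described here sets the unligated right carotid artery (RCA) of mice given 5-Aza-2'deoxycytidine against the RCA of mice given saline, across all genes detected on the arrays. It uses 6 of the 12 samples of the study, 3 per group, chosen by their labels alone. They are called saline RCA 1, 2 and 4 and 5Aza RCA 1, 3 and 4, after the numbers in their titles. All mice were male C57Bl6 on normal chow, labelled as 9 weeks old, and no group carried an engineered allele. 5-Aza-2'deoxycytidine (5Aza, also called decitabine) was injected intraperitoneally each day at 0.2 mg/kg for 21 days, and control mice received saline. In every mouse of both groups the left carotid artery (LCA) was partially ligated after 2 weeks of injections by tying off 3 of its 4 caudal branches, and both arteries were taken 7 days later. The RCA was not operated on, but it came from an animal with an operated LCA, and no group without surgery was analysed here. RNA was obtained by flushing the lumen, which enriches for the endothelium, and 3 arteries were pooled per sample, so 1 sample averages several mice and p-values below measure the spread between such pools.

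Endothelial cells line the vessel and read the shear stress of the blood. Steady laminar flow, which the unligated carotid keeps, is known to hold them in a quiescent, anti-inflammatory state, and slow oscillating flow is known to shift them towards inflammation. DNA methylation at CpG sites of a promoter is generally associated with silencing. Decitabine is a cytidine analogue that is built into replicating DNA and traps DNA methyltransferases there, so that methylation is lost as cells divide. In cultured tumour cells the drug is known to switch on germline genes, imprinted genes and interferon-stimulated genes. The lists described below were drawn up with that background in mind.

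Illumina bead arrays reported 45281 probes. Levels are log2 intensities after background correction and quantile normalization, on which 1 unit is a doubling, and a gene is represented by its brightest probe. A total of 10596 genes were detected in all 3 samples of at least 1 of the study's 4 groups. The 6 RCA arrays each detected between 21443 and 22524 probes at a detection p under 0.05. Across genes, pairs of arrays from the same RCA group correlated at 0.945 to 0.959 and pairs from different groups at 0.944 to 0.953, so the 2 ranges overlapped. The first principal component of the 6 arrays held 25.4% of the variance. On it the saline arrays stood at -19.3, -16.7 and -8.39 and the 5Aza arrays at 26.8, 15.7 and 1.80. The groups did not overlap on this axis, but 5Aza RCA 4 lay closer to the nearest saline array than to either of the other 5Aza arrays.

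The endothelial label was borne out by its markers, though markers of other wall cells were present as well. Of 24 endothelial markers, 23 were tested, among them Cdh5 (the adherens junction cadherin), Pecam1, Vwf and Tie1, and the mean log2 level of the list lay between 8.65 and 8.86 on all 6 arrays. The saline arrays gave 8.86, 8.74 and 8.65 and the 5Aza arrays 8.66, 8.77 and 8.77. On the same arrays the tested fibroblast markers averaged 6.71 to 7.58 and the tested smooth muscle markers 6.05 to 6.58. No endothelial marker had an unadjusted p under 0.05, and the differences between treatments ran from -0.31 to 0.30. Ramp2, a receptor partner for adrenomedullin, was the member with the smallest p. Its levels were 10.07, 10.27 and 10.15 under saline and 10.36, 10.44 and 10.48 under 5Aza, a difference of 0.27 (SE 0.17; limma, adjusted p = 0.982). In bulk RNA, fewer cells of a type and less RNA per cell cannot be told apart.

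No gene passed the test in the unligated artery. With limma's moderated test and Benjamini-Hochberg adjustment over all 10596 genes, 0 genes (0% of those tested) were called at an adjusted p under 0.05 in either direction, and the smallest adjusted p was 0.0853, for the long non-coding RNA Miat. At an unadjusted p under 0.05 there were 604 genes, of which 349 were higher under 5Aza (3.29% of genes tested) and 255 were lower (2.41%). In 782 genes (7.38%) all 3 of the 5Aza samples lay above all 3 of the saline samples, and in 654 genes (6.17%) all 3 lay below. The median difference over all genes was 0.01 on the log2 scale, and the 5th and 95th percentiles were -0.49 and 0.53. The volcano plot shows the scatter and the few genes at its edges.

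**Figure D1:**
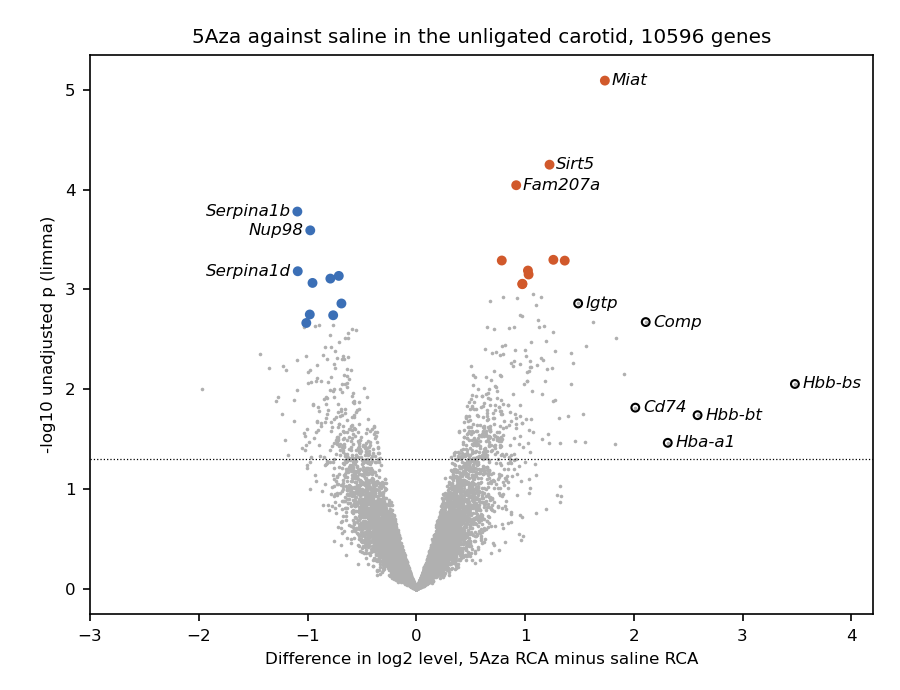
Each point is 1 of 10596 genes; the horizontal axis is the log2 level in 5Aza RCA minus that in saline RCA and the vertical axis is -log10 of the unadjusted p from limma, with a dotted line at 0.05. Filled orange and blue points are the 10 higher and 10 lower named genes, open black circles are further genes described in the text; no gene passes adjustment, Miat comes nearest at an adjusted p of 0.0853, and the haemoglobin genes lie farthest to the right at moderate p.

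A missed threshold does not show that the drug left a gene as it was, so the size each interval allows is given. For 7794 genes (73.6%) the 95% interval of the difference lay within 1 log2 unit of 0 on both sides. The median SE was 0.26. A difference of at least 1 log2 unit was seen in 102 genes, 75 of them higher under 5Aza and 27 lower. Only 5 genes differed by at least 2 log2 units, all of them higher under 5Aza: the haemoglobin genes Hbb-bs, Hbb-bt and Hba-a1, the MHC class II chaperone Cd74, and Comp. None of the 5 passed adjustment. Spread between arrays, as the root of the mean variance over genes, came to 0.333 in saline RCA and 0.356 in 5Aza RCA, close to 0.373 in 5Aza LCA and below 0.512 in saline LCA.

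Miat stood at the head of the genes with higher levels under 5Aza. Miat is a long non-coding RNA of the nervous system, retina and vasculature, encoded on chr5:112213228-112228948 of mouse build GRCm38.p6. Its log2 levels were 4.45, 4.21 and 4.19 in the saline samples and 6.12, 5.45 and 6.49 in the 5Aza samples. All 3 of the 5Aza samples were above the highest saline sample, and Miat was detected on no saline RCA array and on every 5Aza RCA array. Miat passed the detection filter only through 5Aza RCA, the group where it is high. This contrast in detection therefore follows in part from the filter, and with no detection filter Fam207a had the smallest p. The difference was 1.73 (SE 0.23, 95% interval 1.23 to 2.24; limma, adjusted p = 0.0853), or, because the saline level is only a bound, at least 2.86-fold. Miat passed the threshold in 3 of 33 alternative analyses: with a variance prior that follows the mean level (adjusted p = 0.0210), with weights per group (adjusted p = 0.0455) and with 5Aza RCA 3, its lowest treated sample, left out (adjusted p = 0.00492). In the other 30 it did not, and its difference was 0.71 both with the authors' normalized values (adjusted p = 0.283) and with no background correction, where Fam207a had the smaller adjusted p of the pair.

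The promoter window of Miat is shown because the drug acts on CpG methylation and this gene led the ranking, and that of Serpina1b because it led the lower genes. Both are RefSeq sequences of GRCm38.p6 on the minus strand, 250 bases before to 50 bases after the annotated start, with each CpG in capitals. The Miat window lies at chr5:112228899-112229198 and the Serpina1b window at chr12:103738140-103738439.
Miat: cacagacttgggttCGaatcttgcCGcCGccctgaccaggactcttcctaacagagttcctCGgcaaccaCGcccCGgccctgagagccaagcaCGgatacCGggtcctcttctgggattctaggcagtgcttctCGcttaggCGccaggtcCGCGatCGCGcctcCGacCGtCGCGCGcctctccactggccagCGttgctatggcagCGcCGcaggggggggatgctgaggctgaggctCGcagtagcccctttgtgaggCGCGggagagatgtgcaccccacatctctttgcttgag
Serpina1b: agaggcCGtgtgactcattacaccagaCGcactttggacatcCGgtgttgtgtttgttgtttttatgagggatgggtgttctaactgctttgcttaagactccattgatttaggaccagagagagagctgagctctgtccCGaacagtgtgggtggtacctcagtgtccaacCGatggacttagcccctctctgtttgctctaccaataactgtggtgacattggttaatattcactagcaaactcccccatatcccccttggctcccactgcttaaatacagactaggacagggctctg
The Miat window holds 25 CpG sites, which is 0.81 of the number its base composition predicts, and it falls in the high CpG class defined further below. The Serpina1b window holds 5, or 0.28 of the predicted number, and falls in the low class. Methylation was not among the data analysed here, so the sequences describe the promoters and not their state.

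Sirt5, a mitochondrial deacylase that removes succinyl and malonyl groups from proteins, had levels of 4.39, 4.67 and 4.71 under saline and 5.87, 5.54 and 6.02 under 5Aza. The difference was 1.23 (SE 0.20; limma, adjusted p = 0.297), and a second Sirt5 probe gave 1.18. Like Miat, Sirt5 passed the detection filter only through 5Aza RCA. Gldc, the glycine decarboxylase of the glycine cleavage system, stood at 4.31, 5.07 and 4.31 against 6.03, 5.95 and 5.50, a difference of 1.26 (SE 0.27). Both genes thus had all treated samples above all saline samples, and Gldc was detected on 1 of the 3 saline arrays and on every 5Aza array. Fam207a averaged 0.92 higher (SE 0.16) and was among the tightest, with saline levels of 5.96, 6.20 and 6.12 and 5Aza levels of 6.94, 7.07 and 7.03. Its other probe gave 0.66.

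Igfbp4, a secreted protein that binds insulin-like growth factors, was detected on all 6 arrays. Its saline levels were 7.87, 8.09 and 7.74 and its 5Aza levels 8.50, 8.69 and 8.86, a difference of 0.79 (SE 0.17; limma, adjusted p = 0.586), with 0.82 from a second probe. Tmem79, a transmembrane protein known from the skin barrier, stood at 4.67, 5.04 and 4.49 against 5.75, 5.75 and 5.80. Dcaf6, a substrate receptor of a cullin ubiquitin ligase, averaged 0.98 higher (SE 0.22). For both, the treated samples lay close together and above the saline range. Probes of a pair of genes disagreed: Rfx7, a transcription factor, differed by 1.37 on its brightest probe (SE 0.29) but by 0.01 on the other, and Helz, an RNA helicase, by 0.97 on the brightest of 6 probes (SE 0.22) and by -0.29 to 0.61 on the others. The last of the 10, Irgm2, is described with the interferon genes.

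Among the genes with lower levels under 5Aza, the alpha-1-antitrypsin family stood out. These serpins are secreted inhibitors of neutrophil elastase, made chiefly in the liver, and mice carry several near-identical copies of the gene on chromosome 12. Serpina1b had log2 levels of 6.51, 6.84 and 6.30 under saline and 5.58, 5.28 and 5.52 under 5Aza, so the groups did not overlap. The difference was -1.09 (SE 0.20, 95% interval -1.53 to -0.65; limma, adjusted p = 0.438), with -0.43 and -0.42 from its other probes. Serpina1d gave 6.67, 6.85 and 6.19 against 5.71, 5.41 and 5.31, also a difference of -1.09 (SE 0.24).

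The other copies were looked up after these values were seen. Serpina1e stood at 7.26, 7.43 and 7.56 under saline and 5.86, 6.21 and 5.87 under 5Aza, a difference of -1.44 (SE 0.41; limma, adjusted p = 0.663). It was called lower in the analysis that left out saline LCA 1 (adjusted p = 0.0173). Serpina1a differed by -0.81 (SE 0.52), most of it from 5Aza RCA 3 at 6.42 against 7.66 and 7.79 in the other treated samples. Serpina1c differed by 0.12 (SE 0.15). Of the 5 copies, 3 had an unadjusted p under 0.05 and a lower level (2.41% of all genes), and 4 had treated samples all below the saline samples (6.17% of all genes). Probes for copies this alike may each detect several of them, so the copies are not independent readings.

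Nup98, a nuclear pore protein, stood at 5.84, 5.89 and 5.76 under saline and 4.79, 5.03 and 4.75 under 5Aza, a difference of -0.97 (SE 0.19; limma, adjusted p = 0.541). Its other probes gave -0.62 and 0.07, so they disagreed on the size and on the direction. Cdk5rap3, which takes part in the attachment of the ubiquitin-like protein UFM1, gave 8.54, 8.14 and 8.27 against 7.55, 7.45 and 7.09, a difference of -0.95 (SE 0.22). Prdm16, a transcriptional regulator best known from brown fat and also expressed in arteries, gave 6.73, 6.81 and 6.53 against 5.37, 5.80 and 5.87. Its difference was -1.01 (SE 0.26), with -0.44 on a second probe.

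Pofut2, which adds O-fucose to thrombospondin-type repeats, differed by -0.71 (SE 0.16). Rnf215, a RING finger protein, differed by -0.79 (SE 0.18) and Pcdhga10, a clustered protocadherin, by -0.76 (SE 0.19). Ogfrl1 differed by -0.98 (SE 0.24) and by -0.38 on its other probe. Spin1, a reader of methylated histone H3, differed by -0.69 (SE 0.17) on its brightest probe and by 0.24 and 0.37 on the dimmer ones, so its direction depends on the probe. In each of these genes the treated samples lay below the saline samples on the brightest probe. The plot of single samples shows groups that do not overlap for all 20 named genes, which the rule for choosing them requires.

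**Figure D2:**
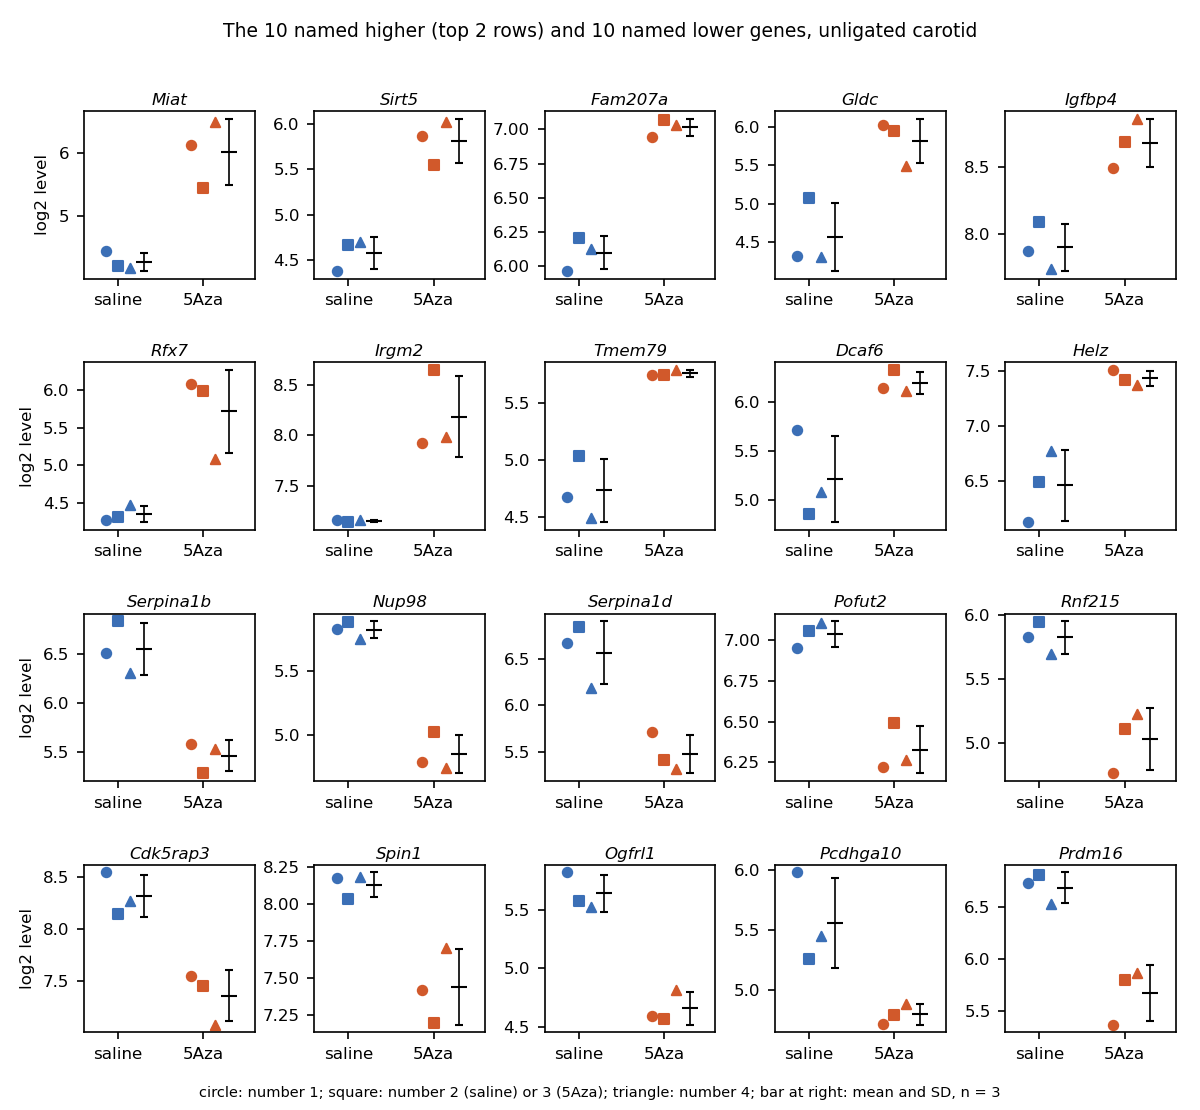
Log2 level of the 20 named genes in each of the 3 saline RCA samples (blue) and 3 5Aza RCA samples (orange), with mean and SD of each group at the right of its points; each panel has its own vertical axis, which does not start at 0. The 2 groups do not overlap in any panel, from Miat (4.19 to 4.45 against 5.45 to 6.49) to Prdm16 (6.53 to 6.81 against 5.37 to 5.87), and no difference passed adjustment.

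Most interferon-stimulated genes averaged higher levels under 5Aza, though none passed the test. Interferons signal through JAK kinases to STAT and IRF transcription factors, which bind the interferon-stimulated response element and the gamma-activated site in promoters. Of 32 listed genes, 25 were tested and 21 of these had a positive difference. None was called, 6 had an unadjusted p under 0.05 and a higher level (3.29% of all genes), and 0 were lower at that p (2.41% of all genes). The median difference was 0.38, beside 0.01 for all genes. Treated samples lay above all saline samples in 6 of the 25 members (7.38% of all genes) and below them in 1, Zbp1 (6.17% of all genes). The mean level of the list was 6.11, 6.06 and 6.09 under saline and 6.24, 6.71 and 6.49 under 5Aza, without overlap. The median stayed positive in all 31 alternatives computed for it, between 0.16 and 0.53, and the number of higher members at an unadjusted p under 0.05 came to 3 without saline RCA 2 or without 5Aza RCA 3, and to 9 without 5Aza RCA 1. With the title number as a replicate block it was 2 and the median 0.25, against a minimum fold of 1.5 it was 1, and with weights per array it was 10.

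Usp18, the protease that removes ISG15 and damps interferon signalling, had the smallest p of the list. Its levels were 5.35, 5.61 and 5.18 under saline and 6.28, 6.74 and 6.71 under 5Aza, a difference of 1.20 (SE 0.33; limma, adjusted p = 0.663), with 0.94 on a second probe. Ifit1, which binds foreign RNA, stood at 4.84, 4.88 and 5.43 against 5.67, 6.44 and 6.09. Its difference was 1.02 (SE 0.31). Ifit3, its partner, differed by 0.92 (SE 0.36), from 8.47, 7.77 and 8.35 to 8.68, 9.36 and 9.29. All 3 had treated samples above the saline range. Tlr3, a sensor of double-stranded RNA, differed by 0.91 (SE 0.34) with overlapping groups. Oasl2 differed by 0.59 (SE 0.25) and Irf7, a master regulator of type I interferon genes, by 0.39 (SE 0.15). Other well-known members gave no such gap: Isg15 differed by 0.26, Cxcl10 by 0.05, Bst2 by 0.09 and Ifit2 by -0.35.

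Large interferon-inducible GTPases, which attack the vacuoles of intracellular pathogens, held the interferon gene with the smallest p. Irgm2 was almost constant under saline, at 7.17, 7.15 and 7.16, and stood at 7.93, 8.65 and 7.98 under 5Aza. The difference was 1.03 (SE 0.22, 95% interval 0.54 to 1.51; limma, adjusted p = 0.586). The rest of the family was listed after Irgm2 had been seen, so its counts are only a description. All 12 tested members had a positive difference, with a median of 0.60, 5 had an unadjusted p under 0.05 (3.29% of all genes were higher at that p), and in 6 the treated samples lay above all saline samples (7.38% of all genes). Igtp (also Irgm3) gave 6.33, 6.22 and 6.09 against 7.46, 8.41 and 7.23, a difference of 1.49 (SE 0.36). Gm4951 differed by 1.39 (SE 0.51), Iigp1 by 1.32 (SE 0.55) and Tgtp1 by 0.87 (SE 0.39), and in each the treated samples exceeded every saline sample. Irgm1, a regulator of the family, differed by 0.08 (SE 0.16). 5Aza RCA 3 was the highest sample for Irgm2, Igtp, Iigp1, Gm4951 and Tgtp1. Without it 2 rather than 5 of the members had an unadjusted p under 0.05, and the median was 0.39. Without saline RCA 4 there were also 2, and without saline RCA 2 there were 3 of 13 tested, with a median of 0.37. The title number as a replicate block left 2, with a median of 0.30, and the authors' normalized values gave a median of 0.35.

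Promoters of some of these genes are shown because the interferon elements can be read from them. Capitals mark the response element core GAAANNGAAA, searched on both strands and so also printed as its reverse complement, and the gamma-activated site core TTCNNNGAA. The windows are RefSeq sequences of GRCm38.p6 on the plus strand, at chr11:58214727-58215026 for Irgm2, chr11:58199306-58199605 for Igtp, chr19:34640639-34640938 for Ifit1 and chr19:34583279-34583578 for Ifit3.
Irgm2: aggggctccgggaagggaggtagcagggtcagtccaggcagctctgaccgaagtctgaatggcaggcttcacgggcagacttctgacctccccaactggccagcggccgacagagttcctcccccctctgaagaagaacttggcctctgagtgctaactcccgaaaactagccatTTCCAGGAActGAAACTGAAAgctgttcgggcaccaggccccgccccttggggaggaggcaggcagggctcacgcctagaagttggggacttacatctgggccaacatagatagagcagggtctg
Igtp: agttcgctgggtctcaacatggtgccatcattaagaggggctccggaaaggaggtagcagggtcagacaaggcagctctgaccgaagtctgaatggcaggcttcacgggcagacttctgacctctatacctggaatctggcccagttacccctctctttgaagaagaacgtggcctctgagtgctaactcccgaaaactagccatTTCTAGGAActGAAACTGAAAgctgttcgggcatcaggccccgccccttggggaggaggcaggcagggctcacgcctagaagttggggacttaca
Ifit1: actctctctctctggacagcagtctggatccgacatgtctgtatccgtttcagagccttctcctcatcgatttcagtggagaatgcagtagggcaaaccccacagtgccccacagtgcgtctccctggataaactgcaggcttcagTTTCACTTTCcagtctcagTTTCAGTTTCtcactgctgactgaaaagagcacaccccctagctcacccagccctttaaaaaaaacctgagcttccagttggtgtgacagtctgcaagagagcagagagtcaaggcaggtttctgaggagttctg
Ifit3: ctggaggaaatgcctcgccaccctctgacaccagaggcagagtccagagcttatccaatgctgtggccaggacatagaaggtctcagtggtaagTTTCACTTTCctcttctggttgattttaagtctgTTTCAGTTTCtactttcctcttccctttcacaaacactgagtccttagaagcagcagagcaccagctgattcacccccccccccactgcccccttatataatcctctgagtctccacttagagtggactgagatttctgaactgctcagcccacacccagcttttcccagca
Irgm2 and Igtp, neighbours on chromosome 11, each hold 1 gamma-activated core followed within a few bases by 1 response element core. Ifit1 and Ifit3 each hold 2 response element cores and no gamma-activated core. Of the 8570 tested genes with a window, 3.14% held the response element core, 6.72% the gamma-activated core and 0.42% both. The response element core was found in 10 of the 20 windows available for the interferon-stimulated list and in 8 of 8 for the GTPases, of which 5 also held the other core. A match describes letters in the window and is not a measured binding site. These windows hold few CpG sites: 7 of the 8 GTPase windows and 12 of the 20 interferon-stimulated windows fell in the low CpG class.

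Most antigen presentation genes averaged higher under 5Aza, but how many did so at an unadjusted p under 0.05 depended on single samples. Of 15 listed genes, 14 were tested, 12 with a positive difference, and the median was 0.50. None was called, and 5 had an unadjusted p under 0.05 and a higher level (3.29% of all genes). In 5 of the 14 members, H2-K1, B2m, Tap2, Psmb9 and Psmb10, the treated samples all exceeded the saline samples, as they did in 7.38% of all genes; these 5 act in the class I pathway. Psmb9, a subunit of the immunoproteasome, gave 8.30, 7.65 and 8.15 against 8.59, 8.82 and 8.51, a difference of 0.61 (SE 0.20; limma, adjusted p = 0.787). H2-K1, a class I heavy chain, differed by 0.44 (SE 0.20), from 9.85, 9.56 and 9.81 to 10.27, 10.18 and 10.08. The count of 5 came to 1 without saline RCA 2, to 2 without 5Aza RCA 3, and to 0 with the title number as a replicate block, where the median was 0.28; weights per array gave 8.

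Class II genes were high in only some of the treated samples. Cd74, the invariant chain, stood at 7.52, 5.84 and 6.75 under saline and at 9.58, 9.86 and 6.71 under 5Aza, a difference of 2.01 (SE 0.71; limma, adjusted p = 0.819). H2-Aa gave 7.13, 5.60 and 7.03 against 9.13, 9.28 and 7.08, a difference of 1.91 (SE 0.58). H2-Ab1 and H2-Eb1 differed by 1.08 (SE 0.43) and 1.09 (SE 0.51). For these genes 5Aza RCA 1 and 3 were high and 5Aza RCA 4 lay within or near the saline range, so the groups overlapped in all 4.

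Red cell and platelet transcripts marked the same samples. Hbb-bs, an adult beta globin, had levels of 4.27, 4.38 and 5.30 under saline and 9.11, 10.45 and 4.83 under 5Aza. The difference of 3.48 was the largest of any gene, with an SE of 1.11 and an adjusted p of 0.716 by limma. Hba-a1 gave 4.25, 4.40 and 4.35 against 7.24, 8.41 and 4.29, and was detected on no saline array. Ppbp, a platelet chemokine, gave 4.19, 4.21 and 4.46 against 6.74, 5.87 and 4.25. Each gene was far above the saline level in 5Aza RCA 1 and 3 and at that level in 5Aza RCA 4. Of the 7 tested members of this list, 3 were detected throughout an unligated group, and the others passed the filter only through the ligated arteries. At an unadjusted p under 0.05, 2 of the 7 had a higher level (3.29% of all genes), and the median difference was 1.32. That median ranged from 0.08 to 1.77 over the alternatives, with 0.08 over 9 members when no detection filter was used, the same without 5Aza LCA 4, 0.78 without 5Aza RCA 1, 0.68 without saline LCA 1 and 0.56 with the authors' normalized values. The haemoglobin copies resemble each other closely, and probes may not tell them apart.

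The macrophage list, whose cells can carry class II molecules, had a median difference of 0.22 over 17 of 20 members, with 14 positive. Of these, 1, Aif1, had an unadjusted p under 0.05 (3.29% of all genes were higher at that p). The median was -0.07 without 5Aza RCA 3, 0.09 without saline RCA 1 and 0.59 over the 5 members detected throughout an unligated group. The other tested members passed the filter only through the ligated arteries. The mean level of the list was 4.29, 4.71 and 5.08 under saline and 4.81, 5.66 and 4.50 under 5Aza. The groups thus overlapped and 5Aza RCA 3 was the highest. The lowest level of a detected probe was 4.48 to 4.54 on the RCA arrays, so the signs of dim members rest on values near that floor. The defining markers Mrc1, C1qa and Csf1r differed by 0.46, -0.01 and 0.20, and Mrc1 was detected on no saline and 1 5Aza RCA array. Aif1 stood at 4.28, 4.53 and 4.90 against 5.54, 6.15 and 5.19, a difference of 1.06 (SE 0.39). The mean levels of the blood list, 6.69 and 6.92 in 5Aza RCA 1 and 3, compared with 4.86 to 5.22 in the saline samples and 5.02 in 5Aza RCA 4. The part of either cell type in the interferon and class II values was not tested.

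**Figure D3:**
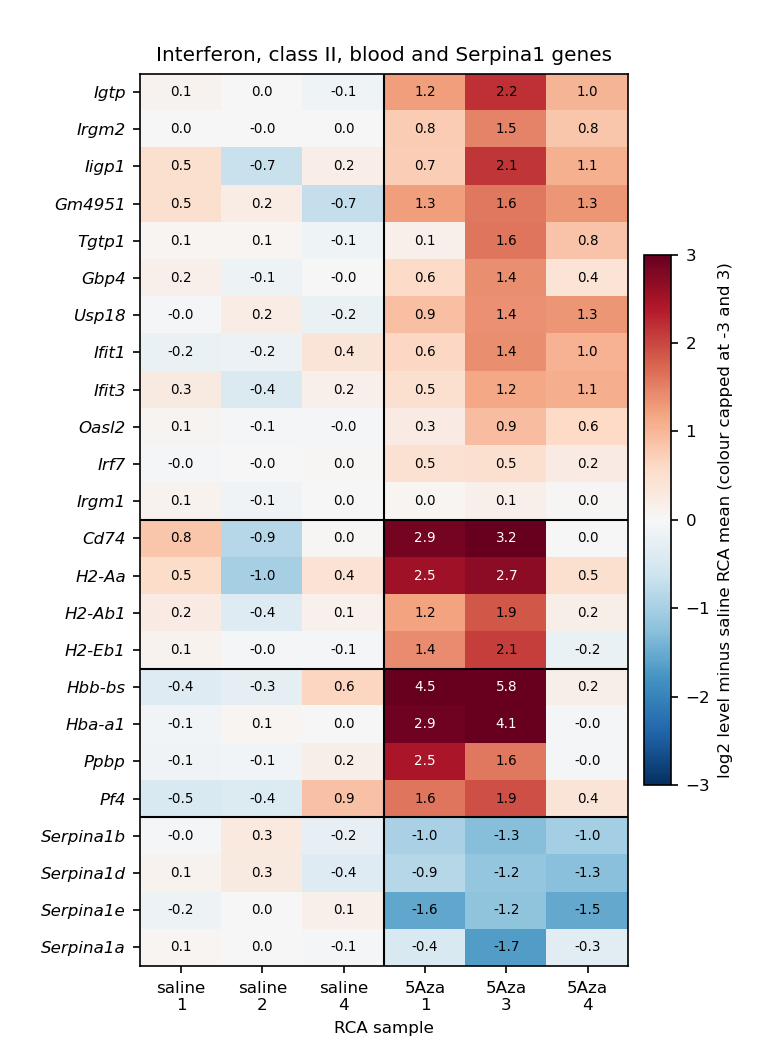
Log2 level of 24 genes in each RCA sample, minus the mean of the 3 saline RCA samples, for interferon genes and GTPases (top block), class II genes, blood genes and Serpina1 copies (bottom block); genes were picked for display after their values were seen, and colours are capped at -3 and 3. The interferon rows are above 0 in 3 of 3 5Aza samples, while Cd74 and Hbb-bs are high in 5Aza RCA 1 and 3 and near 0 in 5Aza RCA 4.

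Other cell types that a flush could carry were checked by their markers. No B cell or thyroid marker was tested, 1 of 10 skeletal muscle markers was (Tnni2, a difference of 0.45) and 2 of 10 neural markers (Stmn2, -0.63, and Cdh19, 0.23). Neutrophil and T cell lists had 3 tested members each, with medians of -0.01 and -0.03, and S100a9, Cxcr2 and Ccl5 were detected on no RCA array. Of their other members, Csf3r was detected on 3 saline and 1 5Aza RCA arrays, and Cd2 on 3 and 2. Cd8a averaged 5.81 under saline and 5.80 under 5Aza. For smooth muscle, 10 markers were tested, with a median of -0.01. Within them Actg2, the enteric smooth muscle actin, stood at 4.76, 5.02 and 5.23 against 7.06, 6.71 and 5.91, a difference of 1.56 (SE 0.43; limma, adjusted p = 0.663), while Tagln (SM22) gave 4.78, 5.38 and 5.51 against 4.58, 4.32 and 4.66, a difference of -0.70 (SE 0.28). The pair thus differed in opposite directions. At an unadjusted p under 0.05 the list had 1 higher and 1 lower member, beside 3.29% and 2.41% of all genes. Fibroblast and adipocyte lists had medians of 0.22 and 0.23. Samples of 1 group were far apart for some of their genes, as Dpt shows at 4.52, 5.06 and 7.03 under saline and 5.98, 7.23 and 7.38 under 5Aza.

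Comp, a matrix glycoprotein of cartilage, tendon and vessel wall, is named here because it was among the 5 largest differences. It stood at 4.37, 5.09 and 4.52 under saline and 7.08, 6.83 and 6.40 under 5Aza. Its groups were far apart, and its difference was 2.11 (SE 0.54; limma, adjusted p = 0.608). Of the 5 largest differences it was the one whose groups did not overlap.

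**Figure D4:**
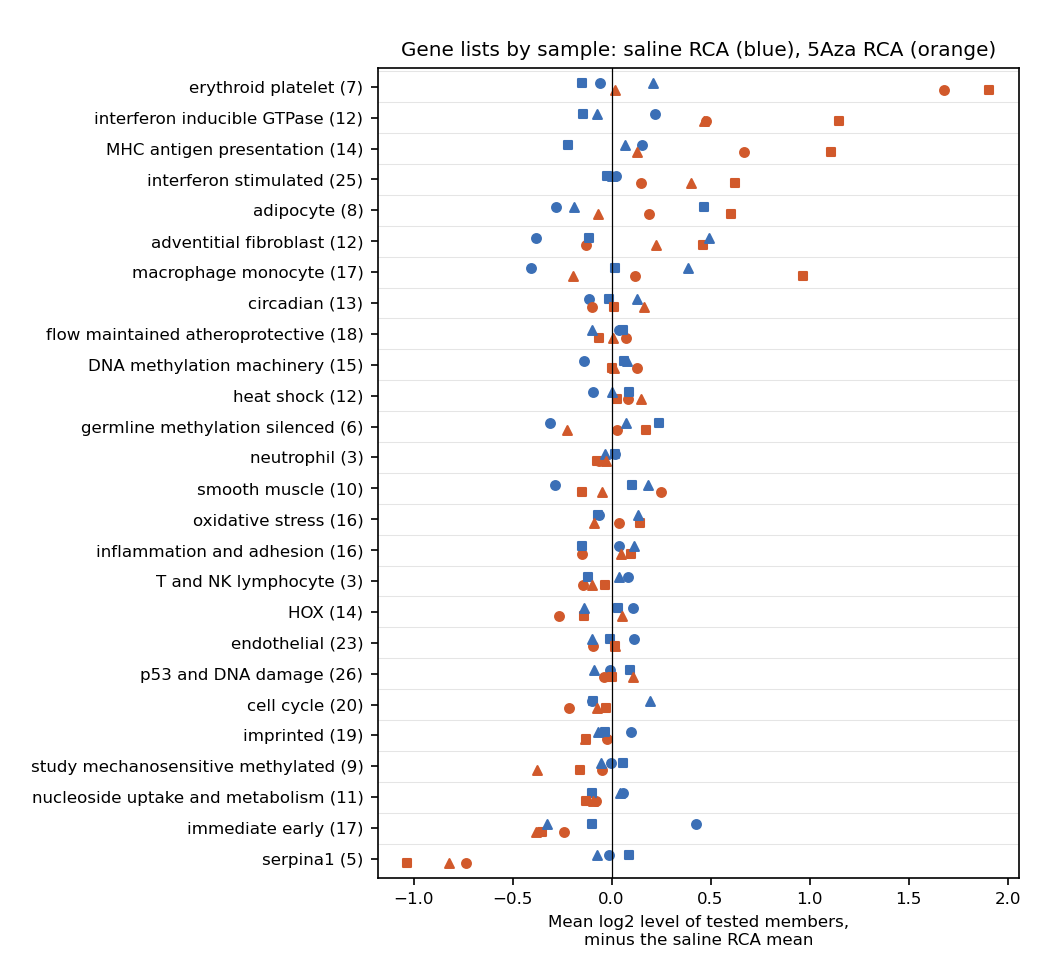
Mean log2 level of the tested members of each gene list (number tested in brackets) in each RCA sample, minus the mean of the 3 saline RCA samples; blue points are saline and orange points 5Aza, with circles for sample 1, squares for sample 2 or 3 and triangles for sample 4. The interferon lists lie to the right for all 3 5Aza samples, the blood list for 5Aza RCA 1 and 3, and the Serpina1 list to the left for all 3; the GTPase and Serpina1 lists were made after the values were seen.

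The genes that write, erase and read DNA methylation showed no called difference. Of 24 listed genes 15 were tested, 10 with a positive difference, with a median of 0.06 and none at an unadjusted p under 0.05. The maintenance enzyme Dnmt1 was at 8.70, 8.60 and 8.65 under saline and 8.85, 8.77 and 8.64 under 5Aza, a difference of 0.10 (SE 0.16; limma, adjusted p = 1). The de novo enzyme Dnmt3a differed by -0.12 (SE 0.17). Dnmt3b, the other de novo enzyme, gave 6.42, 6.12 and 6.14 against 6.81, 6.60 and 6.81, a difference of 0.51 (SE 0.29; adjusted p = 0.958 by limma), and Mbd2, a reader of methylated CpG, differed by -0.41 (SE 0.19). Of the 15, Dnmt3b alone lay above and Mbd2 alone below the saline samples in all 3 treated samples, beside 7.38% and 6.17% of all genes. Of the genes for nucleoside uptake and metabolism, which handle the drug, 11 of 19 were tested with a median of -0.15. Dck, the kinase that activates decitabine, stood at 5.26, 5.25 and 5.82 against 4.63, 4.45 and 5.42, with overlapping groups and a difference of -0.61 (SE 0.29).

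Germline genes that methylation silences were mostly below detection, since 6 of 35 were tested. Their median difference was 0.00, and Dazl, an RNA-binding protein of germ cells, gave 4.27, 4.48 and 4.35 against 4.67, 4.57 and 4.53. Dazl was detected on 1 of 3 saline arrays and on 3 of 3 under 5Aza, with a difference of 0.22 (SE 0.15; limma, adjusted p = 0.999). Imprinted genes were better covered, with 19 tested, 14 of these with a negative difference, and a median of -0.08. Gnas, which encodes the stimulatory G protein alpha subunit, was the member at an unadjusted p under 0.05, at 8.91, 8.62 and 9.09 against 8.43, 8.51 and 8.55, a difference of -0.37 (SE 0.17; limma, adjusted p = 0.872). Among 14 tested HOX genes the median was -0.04, with 7 positive and 7 negative differences.

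A set of 10 genes whose promoter methylation and expression the study's authors are known to have tied to flow and 5Aza was also examined, recalled from that work and drawn in part from these samples, so it is not independent evidence. All 9 tested members missed adjustment, 7 had a negative difference, and the median was -0.13. Hoxa5, a homeobox transcription factor, stood at 8.13, 8.19 and 8.24 under saline and 8.37, 8.50 and 7.73 under 5Aza. The difference of 0.01 (SE 0.22, 95% interval -0.46 to 0.48) compares with 1.16 in the ligated artery, where it was called (limma, adjusted p = 0.0478). The difference between arteries, -1.15, had an adjusted p of 0.372 by limma. Klf3, a zinc finger transcription factor, differed by -0.39 (SE 0.25) in the unligated artery. Dok4, Zfp46, Cmklr1, Pkp4, Tmem184b and Spry2 differed by -0.30 to 0.11.

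Acvrl1, the endothelial receptor ALK1 for BMP9, was the member of that set with a difference at an unadjusted p under 0.05. It stood at 7.69, 7.62 and 7.84 under saline and 7.47, 7.15 and 6.73 under 5Aza. All treated samples were lower, by -0.60 on average (SE 0.23; limma, adjusted p = 0.856). Acvrl1 is also among the genes that laminar flow maintains, of which 18 of 22 were tested, 13 with a positive difference and a median of 0.07. Gja4, the gap junction protein connexin 37, was the other low member, at 8.85, 8.94 and 9.05 against 8.07, 8.31 and 8.81, a difference of -0.55 (SE 0.20). In the inflammation and adhesion list, 16 of 21 were tested with a median of -0.03. Edn1, which encodes the vasoconstrictor endothelin 1, gave 8.82, 8.90 and 8.35 against 7.88, 7.25 and 8.51, a difference of -0.81 (SE 0.29; limma, adjusted p = 0.821), with 5Aza RCA 4 inside the saline range.

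Stress programmes gave small shifts. The p53 and DNA damage list had 26 of 30 members tested and a median of -0.05, with Plk2, a stress-responsive kinase, at 0.86 (SE 0.39; limma, adjusted p = 0.872). The 20 tested cell cycle genes had a median of -0.08 and none had an unadjusted p under 0.05. Oxidative stress genes had a median of -0.02. Srxn1, the sulfiredoxin that repairs peroxiredoxins, stood at 6.47, 6.81 and 6.81 against 7.70, 7.20 and 7.08, a difference of 0.63 (SE 0.25). Heat shock and circadian lists had medians of 0.06 and 0.15, with Ciart, a repressor in the circadian clock, at 0.46 (SE 0.16).

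Immediate early genes, which respond within minutes to handling and to flow, had a negative median of -0.28, with 13 of 17 tested members negative. Ccn1 (Cyr61), a matricellular protein, stood at 10.55, 9.86 and 9.57 under saline and 9.22, 8.29 and 8.60 under 5Aza, a difference of -1.29 (SE 0.44; limma, adjusted p = 0.802). Saline RCA 1 was the highest sample for this list, at a mean level of 7.36 against 6.83 and 6.61 in the other saline samples and 6.55 to 6.69 in the treated ones. Without saline RCA 1 the list's median was -0.01.

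Promoter CpG content was set against the difference because methylation acts there. Windows of 300 bases were available for 8570 tested genes and fell into 3942 high, 2942 intermediate and 1686 low CpG windows. High windows have an observed over expected CpG of at least 0.75 and a GC share of at least 0.55, and low windows an observed over expected CpG under 0.48. The median difference was -0.01 for high, 0.01 for intermediate and 0.04 for low CpG promoters. Genes higher under 5Aza at an unadjusted p under 0.05 made up 3.07% of the high, 3.13% of the intermediate and 4.33% of the low class, and lower genes 2.89%, 2.01% and 2.14%. None was called in any class. Mean levels of the high class ranged from 6.65 to 6.70 over the 6 arrays, with treated arrays inside that range.

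The ligated artery gives a comparison with the same drug, dose and duration under disturbed flow, on 6 other arrays. There, 49 genes (0.462% of those tested) were called, 31 higher and 18 lower under 5Aza, and 1971 had an unadjusted p under 0.05. The labels do not say whether left and right pools came from the same mice. Of the 49 genes, 35 had the same sign in the unligated artery, 6 of them at an unadjusted p under 0.05, and none had the opposite sign at that p. Over all genes, 5.70% had an unadjusted p under 0.05 in the unligated artery, in either direction. The share of all genes with the same sign in both arteries was not counted. Both comparisons use 1 estimate of spread per gene, so a gene with a small spread can have a small p in both. The differences in both arteries correlated at 0.14 across genes, which are not independent. The number called in the ligated artery depended on single arrays: leaving out saline LCA 1 gave 2378, leaving out saline LCA 2 gave 4, leaving out 5Aza LCA 2 gave 2, and leaving out saline LCA 4 gave 0. Leaving out any 1 of the 6 unligated arrays gave 11 to 33.

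Direct tests of whether the drug's difference was unequal between arteries called 0 genes (0%) at an adjusted p under 0.05, with 1009 at an unadjusted p under 0.05 and a smallest adjusted p of 0.203 by limma. Miat differed by 0.03 in the ligated artery (SE 0.23), and the gap between arteries was 1.71 (adjusted p = 0.229 by limma). Sirt5, Rfx7 and Irgm2 likewise stood at -0.08, -0.06 and 0.03 there. Igfbp4 gave nearly the same value in both arteries, 0.79 unligated and 0.73 ligated, and Tmem79 gave 1.03 and 0.81. Cdk5rap3 and Pcdhga10, lower in the unligated artery, differed by 0.40 and 0.70 in the ligated one. Since these 20 genes were picked for their size in the unligated artery, a smaller value in the other artery follows in part from the choice.

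The test between arteries also hinged on 1 ligated array. Without saline LCA 1, which had the lowest weight of all 12 arrays, 1254 of 11219 genes (11.2%) were called, among them 11 of the 20 named genes. Miat then had a gap of 1.71 (SE 0.34; limma, adjusted p = 0.0104) and Cdk5rap3 one of -1.57 (SE 0.25; limma, adjusted p = 0.00304), whereas Igfbp4 had one of -0.01. The 20 named genes were picked for their difference in the unligated artery, which is part of this gap. Their count and p-values for the gap therefore follow in part from that choice. The genes with the smallest p for the gap with all arrays were Mrap, Mettl6 and Lair1. Mettl6 stood at 6.06, 5.71 and 5.66 in saline RCA and 6.37, 6.56 and 6.57 in 5Aza RCA, a difference of 0.69 (SE 0.20), beside -1.01 in the ligated artery. Mrap and Lair1 were detected on no RCA array, so their gaps come from the ligated side.

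**Figure D5:**
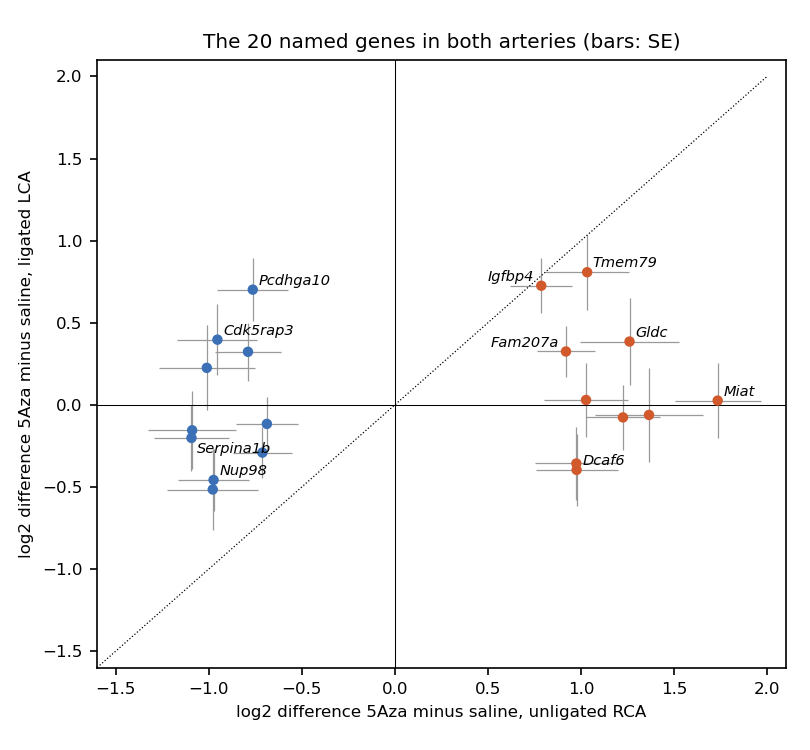
Log2 difference 5Aza minus saline for the 20 named genes in the unligated RCA (horizontal) and the ligated LCA (vertical), with SE bars from limma and a dotted line of equal values; orange genes are higher and blue genes lower in the RCA. Igfbp4 and Tmem79 lie near the line, Miat lies near 0 on the vertical axis at 0.03, and Pcdhga10 lies at 0.70 above 0; the spread along the horizontal axis follows from how the genes were chosen.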

How the data were processed

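Probe intensities of 12 samples came from Illumina mouse bead arrays, which the authors read out with GenomeStudio 2010.3 per the submitters' processing notes. Per the file headers, the deposited unprocessed table pairs every intensity with its detection p-value. The authors' deposited normalized intensity table, whose values are linear, served as an alternative. The samples ran on 2 microarrays per the series description; the assignment of samples to these is not given in the sources used here, and the part of the microarray in any result was not tested.

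From the unprocessed intensities, background was corrected and values normalized with limma's neqc (offset 16, negative controls inferred from the detection p-values), then log2 taken. Symbols were updated through the RefSeq table (GRCm38.p6), in which 34807 of 45281 probes matched: 34885 probes had 1 symbol, 10378 had none and 18 had several. Probes were kept if 1 or more groups had all 3 samples with a detection p under 0.05 (21979, of which 18150 had 1 symbol), and 4659 genes with several kept probes were represented by the brightest. The model, in limma 3.58.1 under R 4.3.3, gave every group its own mean over the 12 samples (8 residual degrees of freedom), with two-sided tests and Benjamini-Hochberg adjustment within each comparison. Detection of a gene on an array required detection of any of its probes, kept or not. The number of arrays limits the precision. The pipeline was tested on simulated data.

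The genes and lists were chosen with earlier results of these data known. Genes were named by rule: no gene being called, the 10 in each direction with the largest moderated statistic among those at an unadjusted p under 0.05 whose groups do not overlap; the called members or the 3 with the smallest p in each list; all of the study's list; and the 3 with the smallest p for the gap between arteries. Others are named as examples or were chosen after their values were seen. The numbers in titles and descriptions differ for some samples, and same-numbered arrays of the 2 treatments had correlations of their deviations of -0.002 and -0.060, so they were not paired. Alternatives covered starting values, background, scaling, filter, probes, samples in the fit, variance prior, weights, blocks, minimum fold and leaving out each array.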

Additional observations from a re-analysis of the deposited data

How the results depend on the processing

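The count of 0 called genes in the unligated artery held in 30 of 34 alternative analyses and was 1 in the other 4: with a trended variance prior and with weights per group (Miat in both), and within a range of 0 to 1 over the arrays left out (Miat without 5Aza RCA 3, Serpina1e without saline LCA 1). The authors' normalized values also gave 0, with 579 genes at an unadjusted p under 0.05 by limma. That number was 604 in the main analysis and moved in both directions. With the 6 unligated samples alone in the fit it was 868, without saline LCA in the fit 807, and with weights per array 948. Leaving out saline LCA 1 gave 901 of 11219 genes, and leaving out saline RCA 2 gave 515 of 10776. For the gap between arteries the count of 0 became 1 with no detection filter and 1 with a trended prior (Mrap in both), 847 with weights per array, and ranged from 0 to 1254 over the arrays left out. For the ligated artery the count of 49 became 20 with no detection filter, 1 with detection on all 12 arrays, 13 with detection in an unligated group, 75 with a trended prior, 2254 with weights per array, 16 with weights per group and 0 with a minimum fold of 1.5, and ranged from 0 to 2378 over the arrays left out. The cause was not tested, except that saline LCA 1 had the lowest array weight, 0.19. With the replicate block by title number the unligated count was 0 (512 genes at an unadjusted p under 0.05 by limma) and the ligated count 0; by description number they were 0 and 21, with the arteries as a random block 0 and 46, and the gap between arteries stayed at 0 in all 3. Same-numbered arteries of saline mice correlated in their deviations at 0.03 to 0.06, and those of 5Aza mice at 0.02 and -0.03. Of 4291 alternative values for genes, lists and promoter classes, 4225 were counted as unchanged. A gene value counted so if it stayed on its side of the adjusted p threshold, whatever its size or sign, and 3 passed it. A list or class median counted so if it moved by less than the spread between replicates, whatever its sign, and 63 moved further. Uncalled genes near 0 could change sign, as Hoxa5 did in 4 of 34 alternatives. List medians near 0 changed sign in some alternatives; those of the interferon, antigen presentation, blood, immediate early and Serpina1 lists did not. Starting from values with no background correction gave an interferon median of 0.16 and a Serpina1 median of -0.55. Dim genes such as Miat have only bounds under saline.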
